A study of Homo sapiens with 18 samples.

Results

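The genes described here are 9 aldehyde dehydrogenases of A549 cells: ALDH1A1, ALDH1A3, ALDH2, ALDH3A1, ALDH3A2, ALDH3B1, ALDH6A1, ALDH7A1 and ALDH9A1. They were taken by symbol from the probe sets that carry a single gene symbol, and among several probe sets of a gene the brightest was chosen by its measured mean intensity over all arrays. They are 9 of the 18377 genes tested. The family had 19 measured genes in all, and the other 10 are set beside these below. A549 is an established human lung adenocarcinoma line, and its RNA was read on 18 whole-transcript arrays, 3 biological replicates in each of 6 groups. Cells had received a control siRNA (siControl) or siRNA against PKCiota and PKCzeta, the atypical protein kinase C isoforms (siPKCiz). In each arm they were either left untreated or given 250 pM TGFβ for 1 h, after which the ligand was removed and the cells were kept for 7 h or 23 h more in 0.2% serum, so that RNA was taken at 8 h or 24 h. All groups share the growth in 10% serum, the later low serum and a transfection, and the labels give the untreated arrays no time. The design asks how the response to TGFβ depends on the atypical kinases.

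Most aldehyde dehydrogenases oxidise reactive aldehydes to acids with NAD or NADP as cofactor. The aldehydes come from ethanol, retinol, fatty alcohols, peroxidised lipids and amino acid breakdown, and each enzyme prefers some of these. Lung adenocarcinoma cells are known for high levels of several family members, and total activity of the family is widely used to sort stem-like tumour cells.

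Against the siControl array with the same replicate number, 17.37% to 23.29% of the PRKCI intensity remained in siPKCiz. Of PRKCZ 91.39%, 82.26% and 68.19% remained in replicate 1, but 33.1% to 40.04% in replicates 2 and 3. By this ratio more PRKCZ remained in replicate 1. Its siControl arrays were the lowest of their groups for PRKCZ (log2 8.05 untreated, 8.27 at 8 h and 8.24 at 24 h). Its siPKCiz arrays were the highest of theirs (7.92, 7.99 and 7.68). The ratio thus reflects both arms, and the replicate numbers were not found to pair the arrays. The values of the 4 genes that rose on silencing are given by replicate below. Replicates 2 and 3 were also the closest pair in 6 of 6 groups. Keratins marked the cells as epithelial: on the log2 scale KRT8 ran from 12.63 to 13.24 and KRT18 from 11.29 to 11.90, against a median of 7.31 over all probe sets. The alveolar type 2 markers SFTPC (6.36 to 6.73) and NKX2-1 (5.94 to 6.25) lay below that median, as did PTPRC of leukocytes (5.53 to 5.80), PECAM1 of endothelium (5.92 to 6.41) and DCN of fibroblasts (5.81 to 6.18). CD68, a lysosomal marker of macrophages, lay above it (9.41 to 10.06), and the 4 leukocyte markers summed to 1058 to 1219 in untreated siControl and 958.8 to 1217 at 24 h. Of these CD14 (6.30 to 7.56) fell at 24 h, by 0.66 ± 0.15 log2 units in siControl (limma adjusted p = 0.0065). In siPKCiz it fell by 0.56 ± 0.15 (adjusted p = 0.0225), and the other leukocyte markers were not called at 24 h. The summed intensity of the 4 fibroblast markers was 446.9 to 498.2 in untreated siControl and 717.8 to 745.6 at 24 h, and LUM ran from 6.83 to 8.89 on the log2 scale over the arrays. The summed intensity of the 7 epithelial markers was 19640 to 21280 untreated and 17530 to 20960 at 24 h, and 3 of the 7 fell and 1 rose (CDH1 by -1.62 ± 0.17 log2 units, SE, and CLDN4 by 1.25 ± 0.20). The part of these shifts in the results below was not tested.

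The 9 genes lay at mean log2 intensities from 8.70 (ALDH1A3) to 13.96 (ALDH1A1). Each mean was above that of at least 58.44% of all genes tested, and ALDH1A1 stood above 99.94%. These positions place each probe set among all others and do not rank the enzymes, since probe sets differ in brightness. ALDH3A1 covered the widest range across the arrays, 2.55 log2 units, then ALDH6A1 with 1.29 and ALDH3B1 with 1.15. ALDH9A1 (0.54) and ALDH2 (0.55) covered the narrowest.

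**Figure D1:**
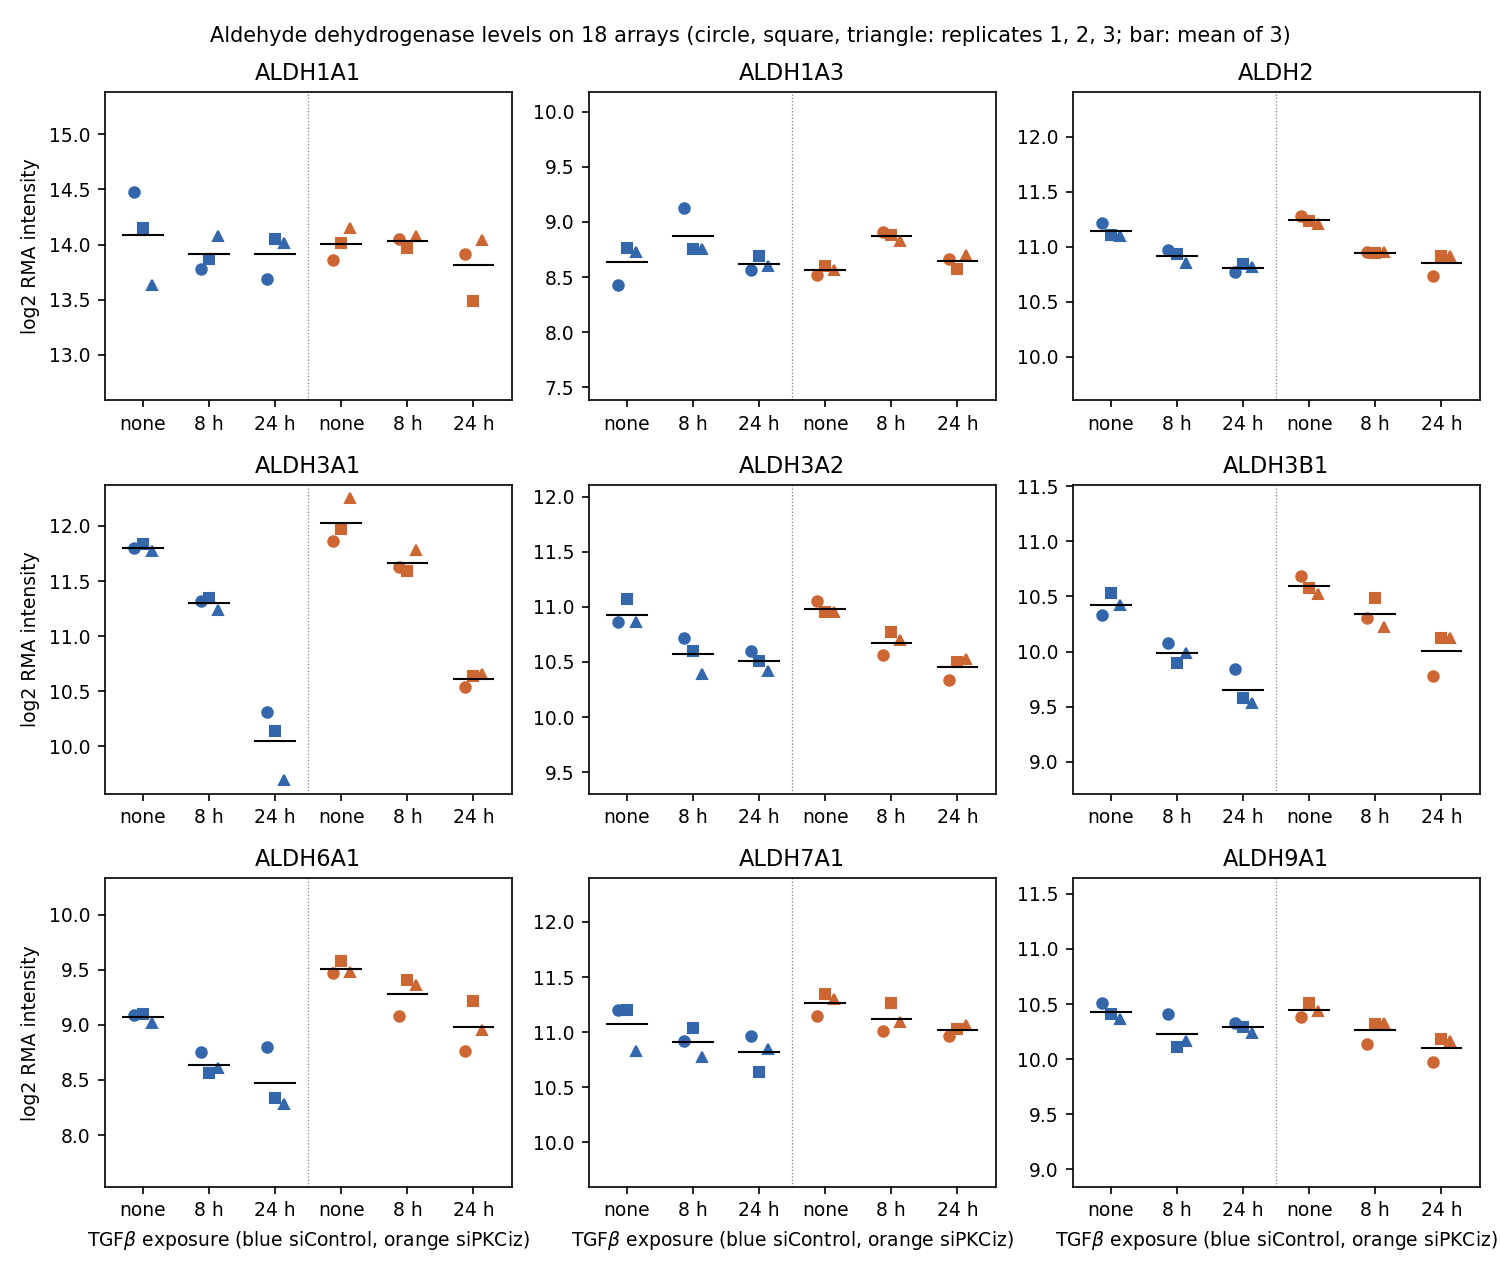
Log2 intensity (vertical axis) of each of the 9 genes on 18 arrays, by TGFβ exposure on the horizontal axis; blue is siControl, orange siPKCiz, marker shapes are replicates 1 to 3 and bars are means of 3. ALDH3A1 steps down from 11.80 to 10.05 in siControl and from 12.02 to 10.61 in siPKCiz, while the ALDH1A1 arrays scatter with no step. All panels span the same number of log2 units, each around its own level.

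In control cells 5 of the 9 genes were lower after TGFβ than untreated at both times, and none rose. No untreated array is labelled as matched to 8 h or 24 h. Effects of TGFβ and of time in low serum therefore cannot be told apart, here and in the falls below. At 8 h ALDH3A1, ALDH3B1, ALDH6A1, ALDH3A2 and ALDH2 had fallen (limma adjusted p between 0.0104 and 0.0412), where 6.18% of all genes fell. At 24 h the same 5 genes were lower, by 0.33 to 1.76 log2 units (adjusted p between 7.09e-08 and 0.0056), where 6.46% of all genes fell. The median difference of the 9 genes was -0.23 at 8 h and -0.33 at 24 h, against 0.0022 and -0.0099 over all genes. In bulk RNA a smaller share of cells that express a gene and less of its RNA per cell cannot be told apart. The list was drawn up with earlier results of these arrays known, so the count is a description of it. Arrays of the 5 genes did not overlap with untreated at either time. In all, groups of 5 genes did not overlap at 8 h and of 6 at 24 h, where 25.3% and 25.5% of all genes had groups that did not overlap.

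ALDH3A1, a cytosolic enzyme that oxidises the medium-chain aldehydes of lipid peroxidation, showed the deepest fall of the 9. It lies on chromosome 17 from 19737984 to 19748298 (GRCh38.p14), the chromosome that also holds ALDH3A2 (19648136 to 19677596). In siControl its intensity was 3571, 3661 and 3493 in untreated replicates 1 to 3, 2565, 2612 and 2418 at 8 h, and 1267, 1127 and 828.2 at 24 h. In siPKCiz it was 3706, 4000 and 4855 untreated, 3161, 3086 and 3512 at 8 h, and 1486, 1594 and 1614 at 24 h. Every array at a later time was thus lower than every array at an earlier time of the same arm, and at each time every siPKCiz array was above every siControl array. The fall in siControl was 0.50 ± 0.12 log2 units at 8 h (SE, n = 3 per group; 1.41-fold lower; limma adjusted p = 0.0104) and 1.76 ± 0.12 at 24 h (3.38-fold lower; adjusted p = 7.09e-08). From 8 h to 24 h it fell by a further 1.26 ± 0.12 in siControl (adjusted p = 2.6e-05) and 1.05 ± 0.12 in siPKCiz (adjusted p = 0.000469). It was the only one of the 9 called between these times in either arm, where 2.41% of all genes were called in siControl and 0.805% in siPKCiz. The call in siPKCiz was lost without replicate 2 (-1.11; adjusted p = 0.128). In siPKCiz the fall from untreated was 1.41 ± 0.12 at 24 h (2.66-fold, adjusted p = 7.25e-07), and the difference at 8 h, -0.36 ± 0.12, did not pass (adjusted p = 0.0995). That difference was called after quantile normalization (-0.39, limma adjusted p = 0.0336) and with array weights (-0.40, adjusted p = 0.0152).

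ALDH3B1, an enzyme of lipid-derived aldehydes that sits at membranes, fell by 0.43 ± 0.11 log2 units at 8 h (1.35-fold; adjusted p = 0.0109) and 0.77 ± 0.11 at 24 h in siControl (1.71-fold; limma adjusted p = 6.77e-05). The siControl arrays read 1285, 1475 and 1368 untreated, 1083, 957.2 and 1018 at 8 h, and 915.6, 767.7 and 741.4 at 24 h. The siPKCiz arrays read 1647, 1529 and 1471 untreated, 1258, 1441 and 1192 at 8 h, and 876.7, 1115 and 1111 at 24 h. In both arms the 3 conditions formed separate steps, and replicate 1 of siPKCiz at 24 h was the lowest array of its arm. The fall at 24 h in siPKCiz was 0.59 ± 0.11 (1.51-fold; adjusted p = 0.00108). At 8 h the difference there was -0.26 ± 0.11 (adjusted p = 0.188). From 8 h to 24 h it differed by -0.34 ± 0.11 in siControl (limma adjusted p = 0.116) and -0.33 ± 0.11 in siPKCiz (adjusted p = 0.181). Neither passed, but the siControl difference did without replicate 1 (-0.39; adjusted p = 0.0359).

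ALDH6A1, the mitochondrial methylmalonate semialdehyde dehydrogenase of valine and pyrimidine breakdown, had an intensity of 545.6, 550 and 517.4 in untreated siControl, 431.5, 376.9 and 390.7 at 8 h, and 445.1, 325 and 311.5 at 24 h. For siPKCiz the values were 711, 764.2 and 712.3 untreated, 541.8, 682.6 and 655.3 at 8 h, and 432.3, 595.1 and 495.1 at 24 h. All 3 siPKCiz arrays were above all 3 siControl arrays without ligand and at 8 h, but at 24 h replicate 1 of siPKCiz lay below replicate 1 of siControl. After TGFβ it was lower by 0.43 ± 0.13 log2 units at 8 h in siControl (limma adjusted p = 0.0356). At 24 h it was lower by 0.59 ± 0.13 in siControl (1.51-fold, limma adjusted p = 0.00391) and by 0.53 ± 0.13 in siPKCiz (1.45-fold, adjusted p = 0.01). The call in siPKCiz was lost without replicate 2 (-0.62; adjusted p = 0.0514) or 3 (-0.54; adjusted p = 0.138). A second, dimmer probe set of the gene (mean log2 8.54 against 8.99) had group means of 8.66 untreated, 8.43 at 8 h and 8.17 at 24 h in siControl, and of 8.85, 8.69 and 8.47 in siPKCiz. With the mean of both, the calls of ALDH6A1 at 8 h in siControl and under silencing at 24 h were lost.

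ALDH6A1 and ALDH3B1 are the genes with a RefSeq promoter entry that fell at 24 h in both arms and also rose on silencing (below), so the 250 bases before their start sites are shown. Of the 9 genes 7 had an entry, with 9 windows; ALDH2 and ALDH3A1 had none. Capitals mark the CCAAT box, written CCAAT, or ATTGG where it lies on the other strand; sequences are RefSeq's, GRCh38.p14, 5′ to 3′ on the gene's strand. ALDH6A1 is at chr14:74084454-74084703 (minus strand) and ALDH3B1, first start site, at chr11:68008297-68008546 (plus strand).
ALDH6A1: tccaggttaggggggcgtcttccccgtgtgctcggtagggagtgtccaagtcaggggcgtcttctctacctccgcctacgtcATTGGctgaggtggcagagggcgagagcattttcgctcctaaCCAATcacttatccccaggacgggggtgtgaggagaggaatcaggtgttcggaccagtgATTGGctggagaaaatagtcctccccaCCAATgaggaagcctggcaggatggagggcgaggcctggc
ALDH3B1: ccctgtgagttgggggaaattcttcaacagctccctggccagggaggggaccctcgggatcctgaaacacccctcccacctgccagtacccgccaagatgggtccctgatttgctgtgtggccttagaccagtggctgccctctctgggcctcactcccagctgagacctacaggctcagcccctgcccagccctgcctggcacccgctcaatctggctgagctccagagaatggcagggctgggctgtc
The ALDH6A1 window holds 4 CCAAT boxes, which begin 168, 126, 67 and 40 bases before the start, in alternating orientation. The ALDH3B1 window holds none, nor any match to the other motifs searched. Over all 35116 promoter windows of this length 32% held at least 1 CCAAT box and 0.874% held 4 or more, and 5 of the 9 windows of these genes held at least 1. Both strands were searched, and the CCAAT box was added after the letters had been seen. The core antioxidant response element TGACNNNGC, bound by NRF2, had no match in the 9 windows (10.9% of all windows), and neither had the AP-1 site TGANTCA (6.57%). The core xenobiotic response element GCGTG, bound by the AHR, matched in 2, those of ALDH1A3 and of the second start site of ALDH3A2 (32.2% of all). A match is a run of letters and was not tested as a binding site.

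ALDH3A2, the fatty aldehyde dehydrogenase of the endoplasmic reticulum, whose loss causes Sjögren-Larsson syndrome, fell in siControl by 0.36 ± 0.094 log2 units at 8 h (adjusted p = 0.0166) and 0.42 ± 0.094 at 24 h (limma adjusted p = 0.0056). In untreated siControl its intensity was 1852, 2151 and 1858, then 1690, 1549 and 1345 at 8 h, and 1555, 1459 and 1372 at 24 h. In siPKCiz cells it was 2122, 1978 and 1976 untreated, 1507, 1747 and 1667 at 8 h, and 1292, 1443 and 1475 at 24 h. Every treated array lay below every untreated array of its arm. The call at 8 h in siControl was lost with only the arrays compared. The arrays of 8 h and 24 h overlapped in siControl and not in siPKCiz, where the fall at 24 h was 0.53 ± 0.094 (1.44-fold, adjusted p = 0.000952). At 8 h the siPKCiz difference, -0.31 ± 0.094, did not pass (limma adjusted p = 0.0615). It was called with the filter on dim genes (adjusted p = 0.0436), quantile normalization (adjusted p = 0.0311) and array weights (adjusted p = 0.0405).

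ALDH2, the mitochondrial enzyme that clears acetaldehyde, fell at both times in both arms. Its intensity in siControl was 2382, 2215 and 2195 untreated, 2006, 1948 and 1843 at 8 h, and 1750, 1834 and 1805 at 24 h. In siPKCiz it was 2483, 2402 and 2373 untreated, 1981, 1970 and 1982 at 8 h, and 1694, 1944 and 1941 at 24 h. The arms lay close together in each condition, and the steps between conditions did not overlap. The falls were 0.23 ± 0.070 and 0.33 ± 0.070 log2 units in siControl (limma adjusted p = 0.0412 and 0.00326) and 0.29 ± 0.070 and 0.38 ± 0.070 in siPKCiz (adjusted p = 0.0154 and 0.00126). The call at 8 h in siControl was lost after quantile normalization (-0.21; adjusted p = 0.0524), with only the arrays compared (adjusted p = 0.168), and without replicate 1 (-0.22; adjusted p = 0.0759), 2 (-0.25; adjusted p = 0.275) or 3 (-0.22; adjusted p = 0.288). At 8 h it was the only one of the 9 called in siPKCiz, where 3.35% of all genes fell, and that call was lost without replicate 1, 2 or 3 (-0.31 to -0.27).

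Calls of the milder falls depended on which replicate was left out. At 24 h in siControl all 5 stayed called without replicate 1, and ALDH3A1 and ALDH3B1 whichever replicate was left out. ALDH2, ALDH3A2 and ALDH6A1 lost the call without replicate 2 (-0.36, -0.34 and -0.51) or without replicate 3 (-0.36, -0.41 and -0.53). At 8 h in siControl none of the 9 was called without replicate 2 and only ALDH3A1 without replicate 3, while the count over all genes went from 2087 to 681 and 802. Without replicate 1 that count was 2917 and 5 of the 9 were called, ALDH9A1 in place of ALDH2.

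ALDH9A1, which makes a precursor of carnitine, passed in siPKCiz at 24 h and in no other comparison. With array weights it was also called at 8 h in siControl (-0.24, limma adjusted p = 0.0229). Its intensity in siControl was 1461, 1365 and 1316 untreated, 1365, 1105 and 1142 at 8 h, and 1285, 1250 and 1205 at 24 h. The siPKCiz arrays read 1331, 1457 and 1390 untreated, 1131, 1275 and 1285 at 8 h, and 1003, 1158 and 1142 at 24 h. All treated siPKCiz arrays were below the untreated ones, and in siControl the 8 h arrays overlapped with untreated. The difference at 24 h was -0.34 ± 0.089 log2 units in siPKCiz (1.27-fold lower; limma adjusted p = 0.017) and -0.15 ± 0.089 in siControl (adjusted p = 0.355), and the difference between the arms, -0.20 ± 0.13, did not pass (adjusted p = 1). The call in siPKCiz was lost without replicate 2 (-0.35; adjusted p = 0.164) or 3 (-0.37; adjusted p = 0.147).

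ALDH7A1, antiquitin, which acts in lysine breakdown, had an intensity of 2353, 2354 and 1826 in untreated siControl, 1941, 2099 and 1741 at 8 h, and 1994, 1599 and 1850 at 24 h. For siPKCiz the values were 2271, 2602 and 2522 untreated, 2068, 2460 and 2180 at 8 h, and 1997, 2086 and 2141 at 24 h. Replicate 3 of untreated siControl lay below most treated arrays of its arm, so the groups overlapped. The difference at 24 h was -0.26 ± 0.11 log2 units in siControl (95% interval -0.49 to -0.029, limma adjusted p = 0.148) and -0.25 ± 0.11 in siPKCiz (adjusted p = 0.176). With array weights the siControl difference was called (-0.38, limma adjusted p = 0.00766).

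The retinaldehyde dehydrogenases ALDH1A1 and ALDH1A3, which make retinoic acid, passed in none of the 12 comparisons. ALDH1A3 had an intensity of 345, 433 and 425.7 in untreated siControl, 559.1, 429.6 and 429.7 at 8 h, and 377.1, 413.1 and 386.8 at 24 h. In siPKCiz cells it was 366.7, 388.1 and 376.5 untreated, 479.9, 469.9 and 455.5 at 8 h, and 405.6, 380.6 and 416.3 at 24 h. The highest group in each arm was 8 h, which stood clear of untreated in siPKCiz and overlapped with it in siControl, where replicate 1 was at once the lowest untreated array and the highest at 8 h. The difference at 8 h was 0.23 ± 0.10 log2 units in siControl (95% interval 0.022 to 0.44; limma adjusted p = 0.165) and 0.31 ± 0.10 in siPKCiz (0.10 to 0.52; adjusted p = 0.0752). It was called in siControl after quantile normalization, and in siPKCiz after quantile normalization, with array weights, or with only the arrays compared. A second probe set of the gene lay below the median of all probe sets (mean log2 6.76), with group means from 6.67 to 6.81.

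ALDH1A1 was among the brightest probe sets on every array. Its intensity in siControl was 22830, 18130 and 12690 untreated, 14080, 14970 and 17350 at 8 h, and 13200, 17000 and 16550 at 24 h. In siPKCiz it was 14860, 16480 and 18200 untreated, 16990, 16090 and 17270 at 8 h, and 15380, 11530 and 16810 at 24 h. The untreated siControl arrays alone spanned nearly the whole range, and all groups overlapped. The difference at 24 h was -0.17 ± 0.17 log2 units in siControl (95% interval -0.53 to 0.19; limma adjusted p = 0.634) and -0.19 ± 0.17 in siPKCiz (-0.55 to 0.17; adjusted p = 0.543), so a fall like that of ALDH3A1 lay outside both intervals. Its SD within groups, 0.24 log2 units, was the highest of the 9, and the genes nearest to it over 18 arrays were EEF1A1 (r = 0.986) and GAPDH (r = 0.982), also at the top of the intensity scale. Over the arrays ALDH1A1 ranged by 0.99 log2 units, by 0.33 after subtraction of the mean of 103 other genes with a mean log2 of 13 or more (a step added after seeing the data), and by 0.14 after quantile normalization, when its SD within groups was 0.035. The cause of this shared scatter was not tested.

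**Figure D2:**
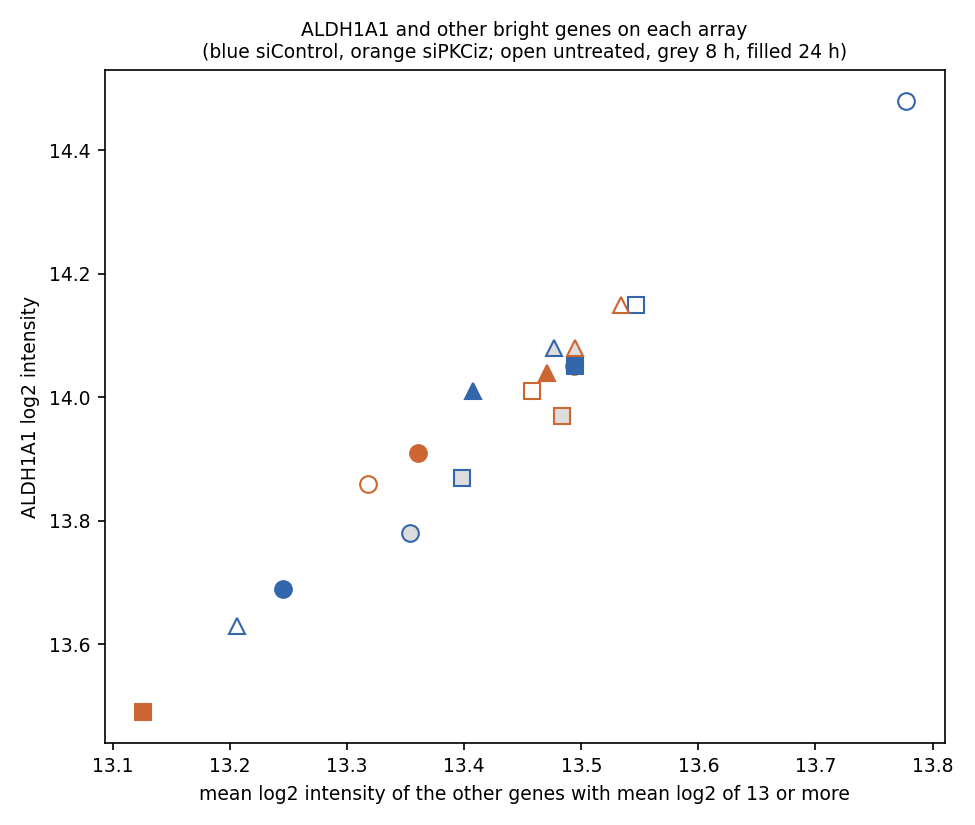
ALDH1A1 log2 intensity (vertical axis) against the mean log2 intensity of 103 other bright genes (horizontal axis), 1 point per array; circles, squares and triangles are replicates 1 to 3, and colour and fill give the arm and the exposure. Arrays with a high bright-gene mean are high for ALDH1A1, from untreated siControl replicate 1 at 14.48 to siPKCiz 24 h replicate 2 at 13.49.

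In siPKCiz cells 6 of the 9 genes fell at 24 h, where 6.09% of all genes fell, with a median of -0.38 against -0.0080 over all genes. They were the 5 that fell in siControl and ALDH9A1. The 5 shared calls were 100% of the siControl calls and 83.3% of the siPKCiz calls among the 9 genes, and over all genes the 746 shared falls were 62.8% and 66.7%. At 8 h the shared call was ALDH2, 20% of the siControl calls and 100% of the siPKCiz calls, against 41.6% and 76.8% over all genes. ALDH3A1 and ALDH3A2 missed the call at 8 h in siPKCiz but passed there under some alternatives, as given above. Groups of 7 genes did not overlap with untreated at each time in siPKCiz, where 25% of all genes had such groups at 8 h and 31% at 24 h. Whether the response differed between the arms was tested by the interaction of silencing and TGFβ. By limma none of the 9 passed at either time, nor did any of the 18377 genes (0%). Under an unadjusted p of 0.05 were 625 genes at 8 h (3.4% of all) and 705 at 24 h (3.84%), with none of the 9 among them. With trend and robust moderation 0 genes passed at each time. The largest of the interactions at 24 h was that of ALDH3A1, 0.35 ± 0.17 log2 units (95% interval -0.017 to 0.71; unadjusted p = 0.0608; adjusted p = 1). Its fall at 24 h was therefore from 0.017 log2 units larger to 0.71 smaller in siPKCiz within the interval. Without replicate 1, where the PRKCZ ratio between arms was highest, 58 genes at 8 h and 80 at 24 h passed, and again none of the 9.

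**Figure D3:**
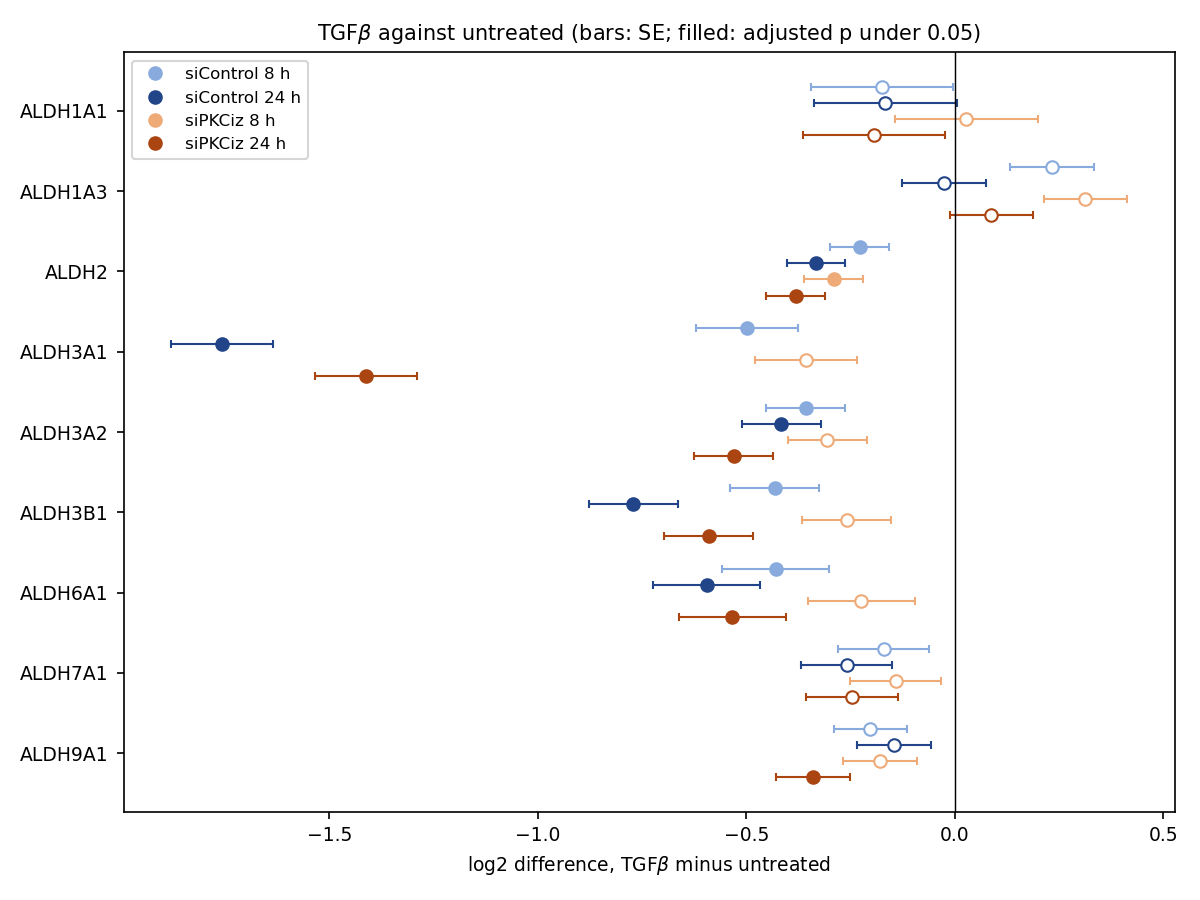
Log2 difference from untreated (horizontal axis) of each gene at 8 h (light) and 24 h (dark) in siControl (blue) and siPKCiz (orange), with bars of 1 SE; filled points passed at an adjusted p of 0.05. ALDH3A1 at 24 h stands apart at -1.76 and -1.41, and ALDH1A1 and ALDH1A3 have no filled point.

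Silencing of the atypical kinases raised 4 of the 9 genes over the mean of the 3 conditions, and none fell, where 11.8% of all genes rose. ALDH6A1 rose most, by 0.53 ± 0.074 log2 units (SE; 1.44-fold; limma adjusted p = 6.55e-05), then ALDH3A1 by 0.38 ± 0.071 (1.30-fold; adjusted p = 0.000846), ALDH3B1 by 0.29 ± 0.062 (1.22-fold; adjusted p = 0.00255) and ALDH7A1 by 0.20 ± 0.063 (1.15-fold; adjusted p = 0.0316). The other 5 differed by at most 0.059 in size, that of ALDH2 (95% interval -0.026 to 0.14), with an interval of -0.23 to 0.19 for ALDH1A1. The median of the 9 was 0.059, against -0.0070 over all genes. Cell type markers also rose by limma: EPCAM (0.76 ± 0.16, adjusted p = 0.0022), CDH1 (0.49 ± 0.098, adjusted p = 0.00177) and KRT19 (0.25 ± 0.067, adjusted p = 0.0137). So did LUM (0.55 ± 0.079, adjusted p = 7.91e-05) and the dim LAMP3 (0.46 ± 0.055, adjusted p = 1.51e-05). The other markers were not called, with CLDN4 at -0.24 ± 0.11. The part of these shifts in the rises was not tested. ALDH6A1 and ALDH3A1 kept their calls whichever replicate was left out (0.42 to 0.68 and 0.24 to 0.47). ALDH3B1 lost its call without replicate 2 (0.24; adjusted p = 0.121) or 3 (0.28; adjusted p = 0.0821), and ALDH7A1 without replicate 2 (0.17) or 3 (0.13).

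Within single conditions fewer of these rises passed. Without ligand none of the 9 was called, where 3.58% of all genes were. An unadjusted limma p under 0.05 was found for 17.4% of all genes and for 1 of the 9. That gene was ALDH6A1, 0.44 ± 0.13 log2 units (adjusted p = 0.0672), which was called with the filter on dim genes, with array weights, with only the arrays compared and without replicate 1 (0.47). At 8 h ALDH6A1 rose by 0.64 ± 0.13 (1.56-fold; limma adjusted p = 0.00743), where 3.52% of all genes rose. ALDH3A1 (0.36 ± 0.12; adjusted p = 0.0925) and ALDH3B1 (0.34 ± 0.11; adjusted p = 0.0673) did not pass at 8 h, and both did without replicate 1 (0.39 and 0.41). At 24 h ALDH3A1 was higher by 0.56 ± 0.12 (1.48-fold; adjusted p = 0.0153) and ALDH6A1 by 0.50 ± 0.13 (1.41-fold; adjusted p = 0.0382), where 1.51% of all genes rose. With only the arrays compared neither was called at 24 h (adjusted p = 0.0944 and 0.176). ALDH3B1 at 24 h, 0.35 ± 0.11, did not pass (adjusted p = 0.0836), but did without replicate 1 (0.56). Groups of 2 genes did not overlap without ligand, of 3 at 8 h and of 3 at 24 h, where 24.2%, 24.1% and 17.8% of all genes had such groups. Higher in siPKCiz were ALDH3A1 and ALDH6A1 without ligand, these and ALDH3B1 at 8 h, and ALDH3A1 and ALDH7A1 at 24 h. ALDH9A1 was lower at 24 h (-0.18 ± 0.089; limma adjusted p = 0.336), and the ALDH6A1 arrays overlapped there.

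Over the mean of conditions replicate 1 gave the smallest difference between arms for each of the 4 genes that rose. Between arrays of the same number the mean over conditions was 0.22, 0.73 and 0.63 log2 units for ALDH6A1 in replicates 1 to 3, and 0.20, 0.29 and 0.66 for ALDH3A1. It was 0.17, 0.39 and 0.31 for ALDH3B1 and 0.014, 0.25 and 0.33 for ALDH7A1. At 24 h the ALDH6A1 difference was -0.042 in replicate 1 and 0.87 and 0.67 in the others, and that of ALDH3A1 was 0.23, 0.50 and 0.96. At 8 h the ALDH6A1 difference was 0.33, 0.86 and 0.75. All calls within single conditions depended on replicates 2 and 3. Without replicate 2 the rises of ALDH6A1 at 8 h (0.54; adjusted p = 0.278) and 24 h (0.31; adjusted p = 0.654) and of ALDH3A1 at 24 h (0.60; adjusted p = 0.367) were not called. Without replicate 3 they were 0.59 (adjusted p = 0.266), 0.42 (adjusted p = 0.516) and 0.37 (adjusted p = 0.279). Genes called over the whole array at 8 h went from 995 to 3486 without replicate 1, 35 without replicate 2 and 24 without replicate 3. Whether the higher PRKCZ ratio of replicate 1 has a part in this was not tested.

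**Figure D4:**
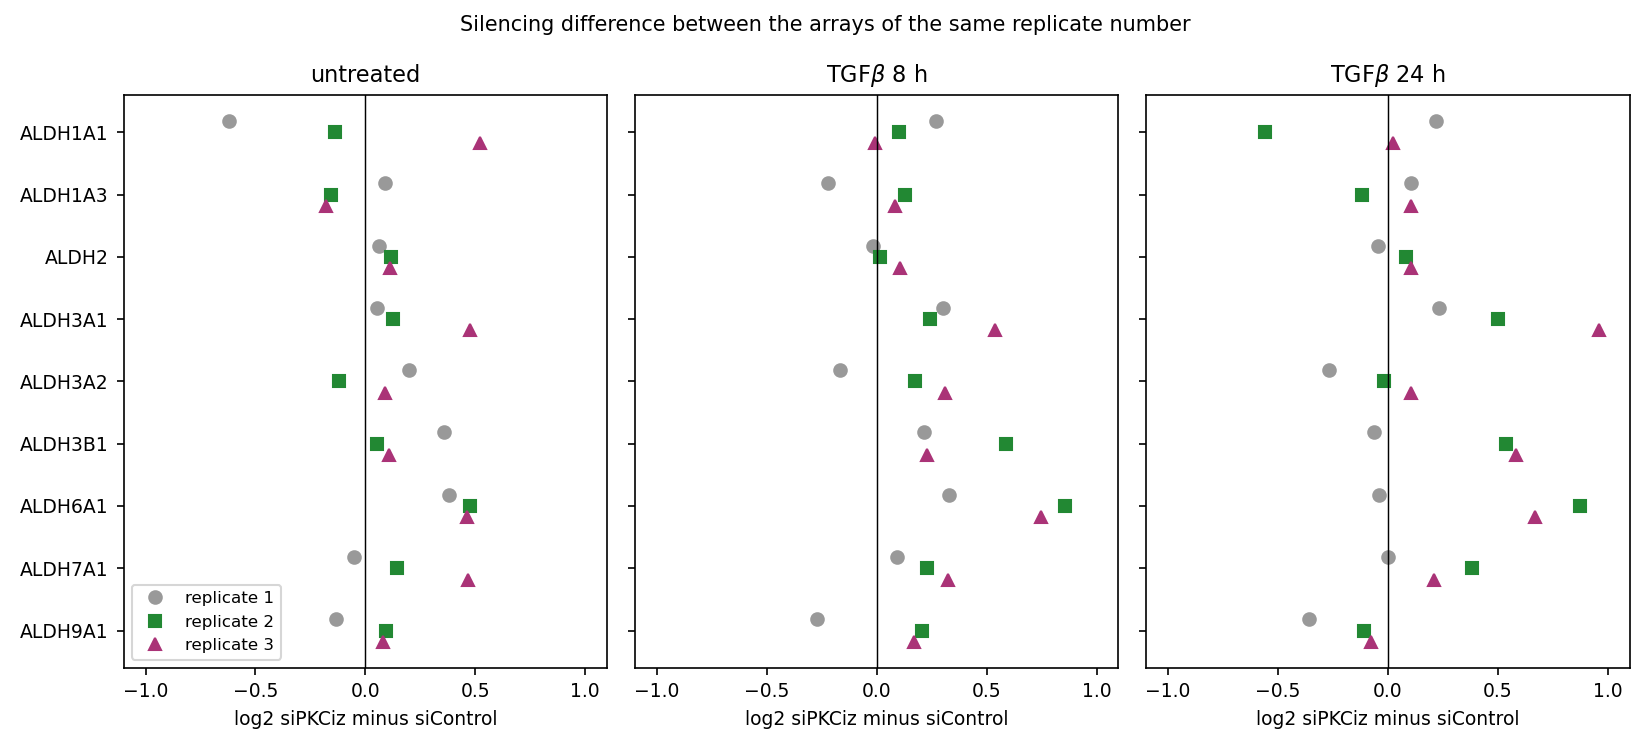
Log2 siPKCiz minus siControl (horizontal axis) of each gene without ligand, at 8 h and at 24 h of TGFβ, between arrays of the same replicate number (marker and colour). For ALDH6A1 at 24 h replicate 1 lies at -0.042 and the other replicates at 0.87 and 0.67. The numbers serve here to show the arrays and were not found to pair them.

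Of the other 10 aldehyde dehydrogenases 1 fell at 24 h in each arm, where 6.46% of all genes fell in siControl and 6.09% in siPKCiz. That was ALDH4A1, the mitochondrial enzyme of proline breakdown, by 0.53 ± 0.11 log2 units in siControl (limma adjusted p = 0.00333) and 0.44 ± 0.11 in siPKCiz (adjusted p = 0.014). None passed at 8 h in either arm. Over the mean of conditions 3 of the 10 rose on silencing, where 11.8% of all genes rose: ALDH5A1, the succinate semialdehyde dehydrogenase of GABA breakdown (0.58 ± 0.083; adjusted p = 7.63e-05), ALDH1L2, a mitochondrial folate enzyme (0.36 ± 0.084; adjusted p = 0.00495), and ALDH1B1, a mitochondrial acetaldehyde enzyme (0.21 ± 0.051; adjusted p = 0.00762). The median of the 10 at 24 h in siControl was 0.032, and whether the 9 differ from the 10 was not tested. Of the 10, ALDH1A2, ALDH1L1, ALDH3B2 and ALDH8A1 had mean log2 intensities from 6.23 to 6.44, below the median of all probe sets.

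**Figure D5:**
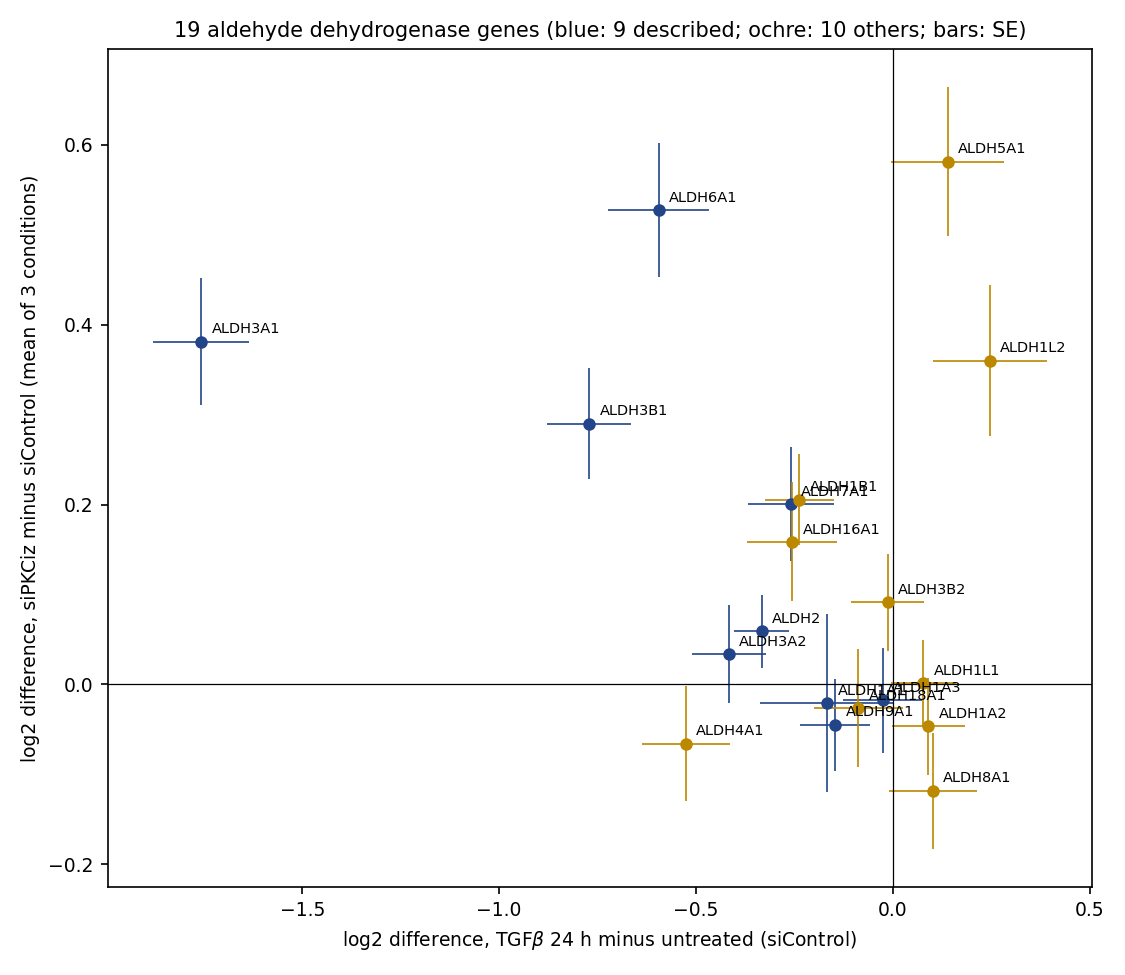
Silencing difference over the mean of 3 conditions (vertical axis, log2) against the TGFβ difference at 24 h in siControl (horizontal axis, log2) for 19 family genes; blue are the 9 described, ochre the other 10, bars are 1 SE. ALDH3A1 lies at -1.76 and 0.38, ALDH6A1 at -0.59 and 0.53, and ALDH5A1 is the highest at 0.58.

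Genes of the pathways around these enzymes were counted by list. Over all genes 6.46% fell and 5.85% rose at 24 h in siControl, and 6.09% fell in siPKCiz. On silencing over the mean of conditions 11.8% of all genes rose and 8.17% fell. Of 20 NRF2 target genes, the antioxidant programme that ALDH3A1 is often grouped with, 14 fell and 1 rose at 24 h in siControl, 16 fell in siPKCiz, and 11 rose on silencing over the mean of conditions (median -0.44, -0.51 and 0.22). GPX2, a glutathione peroxidase, fell by 2.28 ± 0.25 log2 units in siControl (limma adjusted p = 6.01e-06) and AKR1C2, an aldo-keto reductase with near-identical relatives, by 1.17 ± 0.10, while HMOX1, heme oxygenase, rose by 0.78 ± 0.14. GPX2 (r = 0.962) and AKR1C2 (r = 0.959) were the genes nearest to ALDH3A1 over the same 18 arrays. These arrays share the treatments, so genes that fall together have a high r, which is given as a description only. Of 6 genes of the AHR pathway, which is known to induce ALDH3A1, 2 fell and 1 rose at 24 h in siControl. AHR itself fell by 1.04 ± 0.18 (adjusted p = 0.000646) and CYP1B1 by 1.05 ± 0.29, with overlapping arrays. TIPARP rose by 0.38 ± 0.12 (limma adjusted p = 0.0393), and the other 3 were not called.

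Of 16 alcohol and retinol dehydrogenases, which supply the aldehydes, none was called on silencing. At 24 h in siControl 1 fell, where 6.46% of all genes fell. It was RDH10, which oxidises retinol to retinaldehyde, at -1.39 ± 0.18 log2 units (limma adjusted p = 3.96e-05) and -1.24 ± 0.18 in siPKCiz. Of 16 retinoid binding, receptor, breakdown and target genes 5 fell and 1 rose: the retinol carrier RBP4 fell by 1.21 ± 0.19 and the retinoic acid hydroxylase CYP26B1 rose by 0.49 ± 0.11. On silencing 2 rose and 3 fell, where 11.8% of all genes rose and 8.17% fell. RBP4 differed by 0.94 ± 0.11 and STRA6, the RBP4 receptor, by -0.43 ± 0.082. Thus RDH10 and RBP4 fell while ALDH1A1 and ALDH1A3 passed no test.

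Of 21 genes of branched-chain amino acid breakdown, the pathway of ALDH6A1, 2 fell and 1 rose at 24 h in siControl. On silencing 7 rose and 2 fell (median 0.12). Over all genes 6.46% fell and 5.85% rose at 24 h in siControl, and 11.8% rose and 8.17% fell on silencing. PCCB, a subunit of propionyl-CoA carboxylase, fell by 0.57 ± 0.087 log2 units (limma adjusted p = 0.00019) and was higher on silencing by 0.37 ± 0.050 (adjusted p = 4.82e-05), whereas MCCC2, of leucine breakdown, was lower on silencing by 0.68 ± 0.14. Of 10 genes of fatty aldehyde and sphingolipid breakdown, near ALDH3A2, 4 fell and 1 rose at 24 h in siControl, and 5 rose and 2 fell on silencing. The 4 were the fatty acid hydroxylases CYP4F11 (-1.52 ± 0.16), CYP4F3, CYP4F2 and CYP4F12, close paralogs whose probe sets may share signal, and the gene that rose was the sphingosine kinase SPHK1 (1.32 ± 0.21). Of 9 genes of lysine and choline breakdown and carnitine synthesis, near ALDH7A1 and ALDH9A1, only CHDH, choline dehydrogenase, fell at 24 h in siControl (-0.57 ± 0.13), and only AADAT, of lysine breakdown, rose on silencing (0.32 ± 0.065).

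The genes nearest to each of the others over the 18 arrays, which share the treatments and the arrays, are given as a description. They were ACSM3 (r = 0.974) and AQP3 (0.963) for ALDH2, CDC25B (0.939) and ABCG2 (0.927) for ALDH3A2, MYO5C (0.969) and ELF3 (0.963) for ALDH3B1, and DTWD2 (0.965) and LMO7 (0.960) for ALDH6A1. For ALDH7A1 they were CAST (0.933) and CHMP2B (0.924), for ALDH9A1 SLC25A15 (0.912) and RNF34 (0.894), and for ALDH1A3 MAP3K14 (0.886) and JMJD6 (0.874). Among the 9 themselves ALDH3B1 and ALDH6A1 had the highest r, 0.901 over the arrays and 0.725 after group means were removed.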

How the data were processed

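The authors deposited linear RMA intensity values, from 21.17 to 51230, with array medians between 156.1 and 160.7. RMA and Partek, with versions not given in the sources used here, are named per the submitters' processing notes. The plan allowed for log2 or linear values; log2 was taken once here, with no further normalization. Of 28869 probe sets 19310 carried 1 gene symbol, 1752 several and 7807 none listed; 933 dimmer ones of the same gene were left out, which gave 18377 genes. No array and no per-sample column was left out (0 unused).

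Each gene was fitted with limma 3.58.1 (R 4.3.3) as 6 group means over 18 arrays, trend and robust off, with 12 residual and 18.14 total degrees of freedom. Benjamini-Hochberg adjustment ran over all genes in each of 12 comparisons, and genes were called under 0.05. The same code was tested on simulated data. Each ± is a standard error. Arrays have no read depth; 3 arrays per group limit the precision, and the median SE of a difference was 0.0996. The labels call the replicates biological and say no more, so p-values measure the spread between these samples.

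The members and lists were chosen with earlier results of these data known. Named were all 9 genes, up to 4 called genes per list with the largest change, every other aldehyde dehydrogenase, marker genes, PRKCI, PRKCZ, and the 2 genes with the highest Pearson r to each. Lists not described were markers only. Alternatives were the replicate number as a block, a filter on dim genes, median centring, quantile normalization, array weights, moderation with trend and robust on, the mean of all probe sets per gene, only the arrays compared, and leaving out each replicate number.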

Additional observations from a re-analysis of the deposited data

Results flagged for a closer look

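The mean difference of ALDH9A1 between 24 h and 8 h had opposite signs in the 2 arms, 0.056 ± 0.089 log2 units in siControl and -0.16 ± 0.089 in siPKCiz, and neither passed (limma adjusted p = 0.861 and 0.49). It stands out because every 24 h array lay above the 8 h mean in siControl and below it in siPKCiz. Arrays of the same number differed by -0.087, 0.18 and 0.078 in siControl. The difference between the arms was -0.22 ± 0.13, and with a contrast added after seeing the data it did not pass (limma, n = 3 arrays per group; adjusted p = 0.998; 0 of 18377 genes called, 822 under an unadjusted p of 0.05).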

How the results depend on the processing

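Of 108 differences (9 genes in 12 comparisons) none that was called turned its sign under any alternative, and median centring and trend with robust moderation changed no call. The counts of the 9 genes called that moved by more than 1.5 times are as follows. With the replicate number as a block, 3 in place of 5 were called at 8 h of TGFβ in siControl (ALDH2, adjusted p = 0.0759, and ALDH6A1, 0.055, lost) and 1 in place of 2 for silencing at 24 h (ALDH6A1 lost, adjusted p = 0.0658), and the block changed no other call of the 9. Of the lists, branched-chain amino acid breakdown then had 4 in place of 7 rises on silencing and 1 in place of 2 falls at 24 h in siControl, and the AHR pathway 0 in place of 1 rise there. With both arms pooled, the numbers were not found to pair the arrays. Deviations of arrays with the same number had a median correlation of -0.058 and exceeded 0.1 in 7 of 45 pairs. Of 18 arrays 0 correlated best with an array of their own number. A replicate effect that differs between the arms was not tested by this. At 8 h in siPKCiz 1 gene became 2 with the filter on dim genes, 4 with quantile normalization, 4 with array weights and 2 with only the arrays compared. For silencing without ligand 0 became 1 with the filter on dim genes, with array weights and with only the arrays compared. For silencing at 8 h 1 became 2 with the filter on dim genes and 3 with array weights. For silencing at 24 h 2 became 1 with the mean of all probe sets per gene and 0 with only the arrays compared. At 8 h in siControl 5 became 3 with only the arrays compared. With the mean of all probe sets the level of ALDH1A3 was 7.73 and that of ALDH6A1 8.77, since a dimmer probe set enters. Without each replicate number in turn, the counts ran from 0 to 5 at 8 h and 2 to 5 at 24 h in siControl, 0 to 0 at 8 h and 4 to 6 at 24 h in siPKCiz, and 1 to 2 and 0 to 1 between 8 h and 24 h in siControl and siPKCiz. For silencing they ran from 0 to 1 without ligand, 0 to 3 at 8 h, 0 to 3 at 24 h and 2 to 4 for the mean of conditions; fewer arrays entered these fits, and the cause of other changes was not tested. With only the arrays compared 2 genes of all passed the interaction at 8 h, and with array weights 1 at 24 h, none of the 9. No background signal per probe set was used here, so precision is stated by the number of arrays alone.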
